A study of Mus musculus with 60 samples.

Results

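Cdh1, Cdh2, Vim, Fn1, S100a6, Snai1, Snai2, Zeb1, Zeb2 and Twist1 are the genes by which a shift of epithelial cells towards a mesenchymal state is usually read, and their RNA was followed through the expansion of mouse hepatocytes in IL6 and through liver regeneration. The 10 genes were chosen by name and not by their values: a pair of cadherins, 3 structural or calcium-binding genes of mesenchymal cells and 5 transcription factors. All 10 were found among the 19355 genes of the cell table and among the 17473 genes of the liver table, and 10 and 9 of them passed a filter of at least 1 FPKM in at least 3 samples (FPKM, fragments per kilobase of transcript scaled to the mapped fragments of the library, a level corrected for gene length and library size). Of the 60 samples of the series, 33 cell samples in 11 groups and 18 livers in 6 groups carried these values. The other 9 samples, 3 of primary hepatocytes and 6 of day 7 cultures, were not analysed here for these genes.

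The labels give all samples as wild type (WT) and C57BL/6. The study, however, describes its single-cell clones as grown from tdTomato-marked hepatocytes of mice that carried Albumin-Cre, a transgene active in hepatocytes, and a tdTomato reporter, and the labels of clone-1 name neither allele. Hepatocytes were the freshly isolated starting cells, and IL6-iHPCs (IL6-induced hepatic progenitor cells) were hepatocytes grown in IL6-HCM, a basal medium with insulin, transferrin, selenium, EGF, HGF, dexamethasone and IL6. Unpassaged IL6-iHPCs (P0) were taken on day 3 (D3) and on day 14 (D14). Passaged IL6-iHPCs were lines of mouse-1 at passage 10 and passage 35 (P10, P35), of mouse-2 at passage 10 and of clone-1, grown from a single hepatocyte, at passage 20 (P20). IL6-iMHs (IL6-induced mature hepatocytes) were cells of the same 4 line labels kept for 7 days in a maturation medium with dexamethasone and oncostatin M and without IL6. The livers were whole tissue from normal mice and from mice at 6 h, 24 h, 3 days, 7 days and 14 days after removal of most of the liver (partial hepatectomy, PHX). Each group held 3 samples. The study describes the 3 libraries of a cell group as technical repeats, so the p-values of the cell comparisons measure the spread between libraries of 1 culture and not between mice, and each line stands for 1 mouse or 1 clone.

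Epithelial cells hold together through E-cadherin, encoded by Cdh1, which joins neighbouring cells and is anchored to actin through catenins. In the epithelial-mesenchymal transition, transcription factors of the Snail, Zeb and Twist families bind E-box sequences in the promoters of epithelial genes and repress them, while N-cadherin (Cdh2), vimentin (Vim) and fibronectin (Fn1) rise. Hepatocytes are an unusual epithelium in that they normally carry both E- and N-cadherin, and plasma fibronectin is one of their secreted products, so these genes do not have the same meaning in liver cells as in most other epithelia.

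Depth was 49290999 to 88832909 reads on genes in the cell samples and 52039183 to 79220592 in the livers, so that 1.15 FPKM of Snai1, for example, rested on 106 reads. Genes of the Y chromosome (Ddx3y, Eif2s3y, Kdm5d and Uty) carried 994 to 1550 reads in the hepatocyte libraries, 13066 to 18444 on D3, 9185 to 10803 on D14 and 6575 to 9095 in the libraries labelled clone-1 IL6-iHPCs. The other passaged IL6-iHPCs held 0 to 2 such reads and all IL6-iMHs 0, the libraries labelled clone-1 IL6-iMHs included. The 2 kinds of clone-1 library therefore differ in these genes although they share a line label. Counts of genes called in averages over lines, and the genes nearest in pattern, are given with and without the clone-1 line. All other results that use clone-1 are given with it only. Passage and the mouse of origin cannot be told apart in the comparison of passaged lines with hepatocytes. The 12 hepatocyte markers, genes such as albumin, summed to 88413 to 95171 FPKM in hepatocytes, 650 to 762 on D3 and 61078 to 81830 in IL6-iMHs. Albumin was the largest part of each sum, and the markers did not move alike. Apoa2, Cyp2e1, Pck1 and Asgr1 averaged 10109, 2733, 629 and 253 FPKM in hepatocytes. Their IL6-iMH group means were 15.8 to 118, 0.0677 to 15.4, 0.853 to 2.06 and 3.30 to 18.9. Hnf4a averaged 140 in hepatocytes, 199 on D3 and 178 to 276 in IL6-iMH groups.

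Where a RefSeq promoter entry was given, the 250 bases before the RefSeq start were read from the plus strand of GRCm38.p6 and searched on both strands for CAGGTG (an E-box of the Snail and Zeb type, CACCTG on the other strand), TTCNNNGAA (a STAT site, STAT3 being the factor downstream of IL6), TGANTCA (an AP-1 site), the TATA box TATAAA and the CAAT box CCAAT, which reads ATTGG on the opposite strand. None of these motifs overlaps another in the windows shown. Vim and S100a6 are shown because they rose further than the other 8 genes in passaged cells, and Snai1 because it is the factor whose own level stayed near 0. Capitals mark every match, Vim lies at chr2:13574061-13574310, S100a6 at chr3:90612644-90612893 and Snai1 at chr2:167537945-167538194. The RefSeq start lies 384 bases downstream of the GENCODE start of Vim and 12 bases downstream of that of S100a6, so the Vim window falls inside the GENCODE gene, and the 2 starts of Snai1 are the same.
Vim: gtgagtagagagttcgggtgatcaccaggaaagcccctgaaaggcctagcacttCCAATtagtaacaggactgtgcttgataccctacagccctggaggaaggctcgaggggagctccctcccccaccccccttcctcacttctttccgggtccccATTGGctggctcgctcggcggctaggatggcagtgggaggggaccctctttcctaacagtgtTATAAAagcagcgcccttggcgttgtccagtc
S100a6: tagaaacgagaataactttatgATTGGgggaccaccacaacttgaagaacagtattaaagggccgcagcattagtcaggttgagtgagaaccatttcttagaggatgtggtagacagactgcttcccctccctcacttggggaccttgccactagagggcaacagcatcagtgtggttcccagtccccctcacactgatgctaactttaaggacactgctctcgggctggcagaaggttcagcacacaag
Snai1: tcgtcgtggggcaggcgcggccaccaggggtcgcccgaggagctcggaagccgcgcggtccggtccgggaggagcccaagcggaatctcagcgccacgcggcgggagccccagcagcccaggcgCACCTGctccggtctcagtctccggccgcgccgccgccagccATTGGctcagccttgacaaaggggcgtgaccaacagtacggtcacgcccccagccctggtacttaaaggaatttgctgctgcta
The Vim window holds CCAAT 196 to 192 bases and ATTGG 94 to 90 bases before the start and TATAAA 32 to 27 bases before it. The S100a6 window holds ATTGG alone, 228 to 224 bases before the start. The Snai1 window holds the E-box CACCTG 126 to 121 bases and ATTGG 84 to 80 bases before the start. Neither TTCNNNGAA nor TGANTCA is in these 3 windows. Among 32851 promoter windows of this length, 33.8% hold CCAAT, 17.2% the E-box, 12.4% TATAAA, 7.02% TTCNNNGAA and 6.75% TGANTCA. Twist1 has 1 entry, with CCAAT and TATAAA, and Zeb2 has 4, of which 2 hold TTCNNNGAA and 1 holds TGANTCA. Cdh1, Cdh2, Fn1, Snai2 and Zeb1 have none.

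The cadherins were both present in fresh hepatocytes. Cdh1 (E-cadherin, chr8:106603351-106670246, plus strand) stood at 16.1, 18.9 and 15.7 FPKM in the 3 hepatocyte samples, at 22.9, 20.4 and 22.5 on D3 and at 104, 90.4 and 97.3 on D14. The D3 samples lay just above the hepatocytes and the D14 samples far above both, with no overlap. In a limma fit on log2(FPKM + 1) over all genes, D3 exceeded hepatocytes by 0.36 ± 0.08 (SE, n = 3 a group, adjusted p = 0.000102), under the 2-fold limit used for a call, and D14 by 2.46 ± 0.08 (adjusted p = 1.54e-22). The D3 difference was smaller than the median of all genes tested (1.14) and took the opposite sign with quantile-scaled values (-0.49, adjusted p = 4.02e-06), so that the direction of Cdh1 on D3 depends on the scaling, while D14 was higher under both.

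Cdh2 (N-cadherin, chr18:16588877-16809246, minus strand) measured 7.43, 8.63 and 6.28 FPKM in hepatocytes, 46.8, 39.8 and 46.3 on D3 and 46.6, 45.0 and 50.7 on D14. All 6 cultured samples were above all hepatocyte samples, while D3 and D14 overlapped. Cdh2, Fn1, Zeb1 and Zeb2 overlap annotated transcripts of the opposite strand, whose reads cannot be told apart from theirs because the libraries did not mark strand. The limma difference from hepatocytes was 2.43 ± 0.09 on D3 (adjusted p = 1.87e-21), and that between D14 and D3 was 0.10 ± 0.09 (adjusted p = 0.316).

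The 2 cadherins thus rose at different times. The ratio of Cdh1 to Cdh2 in FPKM was 2.17 to 2.50 in hepatocytes, 0.486 to 0.512 on D3 and 1.92 to 2.22 on D14. On the log2 scale it averaged 1.19 ± 0.12 (SD, n = 3), -1.01 ± 0.04 and 1.03 ± 0.11. Among the 11 cell groups, D3 was the one in which Cdh2 was above Cdh1, in 3 of 3 samples, and in the other 10 groups Cdh1 was above Cdh2 in all 3 samples. In passaged IL6-iHPCs the mean log2 ratio was 0.52 for mouse-1 and 1.41 for mouse-2 at P10, 1.82 for mouse-1 at P35 and 3.52 for the clone, where Cdh1 exceeded Cdh2 by 11.3 to 11.6 times. In IL6-iMHs it was 1.68, 1.71, 2.58 and 2.68 in the same order of lines, each above the hepatocyte mean.

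**Figure D1:**
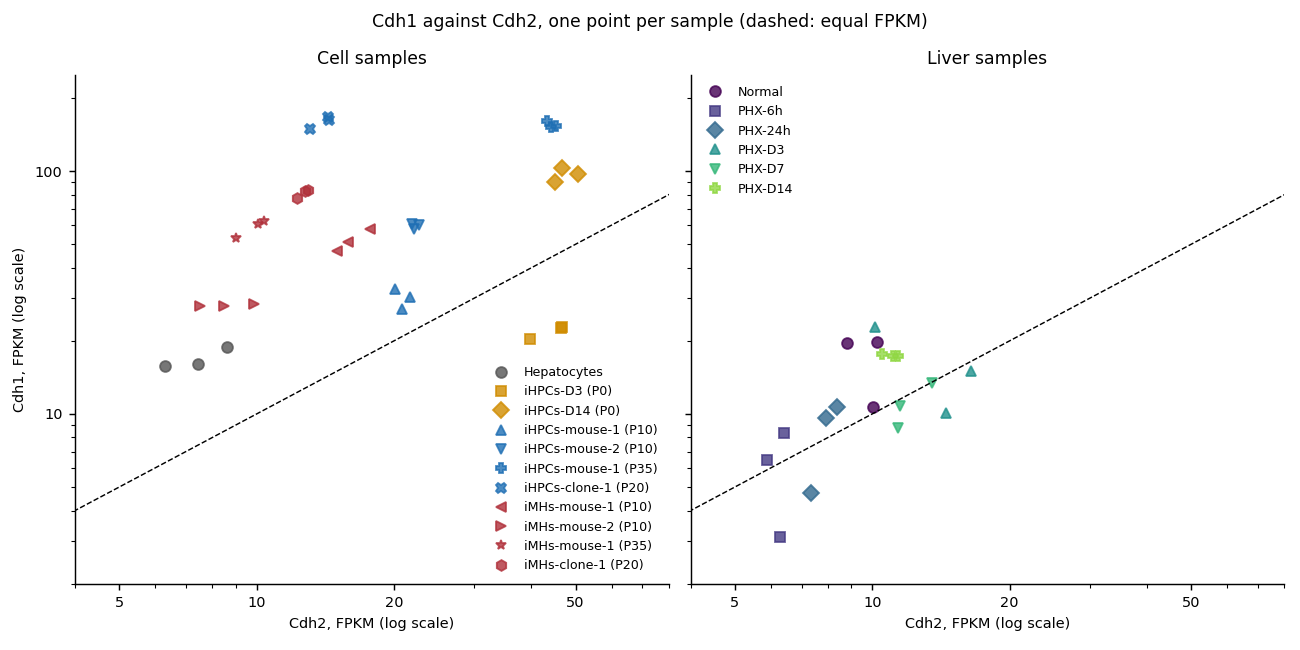
Cdh1 (vertical axis) against Cdh2 (horizontal axis) in FPKM on log scales, 1 point per sample, 33 cell samples on the left and 18 livers on the right, with a dashed line of equal levels. The 3 D3 samples lie below the line at ratios of 0.486 to 0.512, all other cell samples lie above it, and the livers scatter about it.

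Vimentin, the intermediate filament protein of mesenchymal cells (Vim, chr2:13573927-13582826, plus strand), was near the filter limit in hepatocytes, at 2.18, 1.65 and 1.94 FPKM. It measured 399, 451 and 401 FPKM on D3 and 502, 495 and 479 on D14. The groups did not overlap at any step. The limma difference was 7.16 ± 0.09 on D3 against hepatocytes (adjusted p = 5.49e-32), where the median of all genes tested was 1.14, and 0.24 ± 0.09 between D14 and D3 (adjusted p = 0.0246), so nearly all of the rise fell within the first 3 days.

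Fibronectin, a glycoprotein of plasma and of the matrix (Fn1, chr1:71585520-71653200, minus strand), was already expressed by hepatocytes, at 60.9, 90.7 and 41.4 FPKM. It reached 2102, 1707 and 2006 FPKM on D3 and 5049, 5065 and 5053 on D14. The 3 groups were separate, and the hepatocyte libraries spread more, in proportion, than the D14 libraries. Fn1 alone took 0.0514% of all reads on genes in hepatocytes, 1.55% on D3 and 4.03% on D14. The limma difference from hepatocytes was 4.96 ± 0.24 on D3 (adjusted p = 4.76e-18), and D14 exceeded D3 by 1.39 ± 0.24 (adjusted p = 9.71e-06).

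S100a6, the small calcium-binding protein calcyclin (chr3:90612882-90624181, plus strand), measured 1.68, 1.02 and 1.58 FPKM in hepatocytes, 78.3, 145 and 79.1 on D3 and 247, 204 and 202 on D14. D3 replicate 2 was the high sample of its group, and it too lay below every D14 sample. The limma difference from hepatocytes was 5.34 ± 0.23 on D3 (adjusted p = 1.54e-19), and D14 exceeded D3 by 1.16 ± 0.23 (adjusted p = 4.88e-05).

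The transcription factors were far less abundant than the structural genes and did not move together. Snai1 (Snail, chr2:167538195-167542814, plus strand) had 2, 6 and 2 reads in the hepatocyte libraries. It measured 1.15, 0.801 and 1.39 FPKM on D3, from 106, 88 and 135 reads, and 1.03, 0.555 and 0.534 on D14. D3 and D14 overlapped, and 1 FPKM was passed in 3 samples in all, of D3 and D14, so that Snai1 entered the test only through the groups in which it was high. The limma difference from hepatocytes was 1.03 ± 0.09 on D3 (adjusted p = 1.97e-12), at the edge of the 2-fold limit, and 0.72 ± 0.09 on D14 (adjusted p = 5.13e-09).

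Snai2 (Slug, chr16:14705852-14709385, plus strand) measured 0.241, 0.269 and 0.114 FPKM in hepatocytes, 1.61, 1.60 and 1.62 on D3 and 6.03, 7.16 and 7.16 on D14. The samples of the 3 groups were separate and ordered by time. D3 exceeded hepatocytes by 1.11 ± 0.10 and D14 exceeded D3 by 1.57 ± 0.10 (limma, adjusted p = 6.73e-12 and 1.8e-14).

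The 2 Zeb factors, zinc-finger homeobox repressors of E-cadherin, followed opposite courses between D3 and D14. Zeb1 (chr18:5591860-5775467, plus strand) measured 0.707, 0.810 and 0.529 FPKM in hepatocytes, 16, 14.3 and 16.4 on D3 and 6.98, 7.17 and 8.10 on D14. Zeb2 (chr2:44983632-45117395, minus strand) measured 0.0533, 0.0224 and 0.0103 FPKM in hepatocytes, 3.35, 3.00 and 3.15 on D3 and 11.1, 11.8 and 11.9 on D14. Zeb1 was highest on D3 and Zeb2 on D14, in every sample, without overlap. The limma difference of D14 from D3 was -0.98 ± 0.09 for Zeb1 (adjusted p = 1.27e-10), just short of 2-fold, and 1.59 ± 0.07 for Zeb2 (adjusted p = 2.86e-18). Against hepatocytes, Zeb1 differed by 3.30 on D3 and 2.32 on D14, and Zeb2 by 2.02 and 3.61, all 4 past the test.

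Twist1 (chr12:33957671-33959829, plus strand), a basic helix-loop-helix factor, stayed low in unpassaged cells. It measured 0.163, 0.0475 and 0.0435 FPKM in hepatocytes, 0.410, 0.217 and 0.246 on D3 and 0.723, 0.529 and 0.420 on D14. Neither day passed the call limits (limma, 0.25 ± 0.16, adjusted p = 0.131, and 0.52 ± 0.16, adjusted p = 0.00292), although the 3 groups did not overlap in FPKM.

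A call required an adjusted p under 0.05 and a 2-fold difference. By this rule 8 of the 10 genes were higher on D3 than in hepatocytes and 0 lower, the exceptions being Cdh1 and Twist1. Snai1 is among the 8, although it passed the filter through its high samples alone. Snai2, Zeb1 and Zeb2, also among the 8, were under 1 FPKM in every hepatocyte sample and passed the filter through cultured samples alone. The share of all 12328 genes called was 66.0%, and 53.9% were called higher. On D14, 8 were higher than in hepatocytes, the exceptions being Snai1 and Twist1, against 62.9% of all genes called and 50.0% called higher. From D3 to D14, 5 rose (Cdh1, Fn1, S100a6, Snai2 and Zeb2) and 0 fell, against 10.2% called and 5.12% called higher. Library-scaled values rose for most genes on D3 while the summed hepatocyte markers fell, and a link between these changes was not tested. With quantile-scaled values the median of all genes on D3 was 0.11 instead of 1.14. The split of calls was then 3179 higher and 2749 lower instead of 6641 and 1494. With that scaling 6 genes were called on D3, since Snai2 turned from 1.11 to -0.10 and Snai1 stood at 0.29, and Twist1, not called, turned to -0.41. Meanwhile Vim, Fn1, S100a6, Cdh2, Zeb1 and Zeb2 kept their direction and their call. On D14 it left 7, Zeb1 falling to 0.97, and the split of all calls became 3117 higher and 2785 lower instead of 6163 and 1595. From D3 to D14 Fn1 then differed by 0.89, short of 2-fold, and 4 genes were called.

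**Figure D2:**
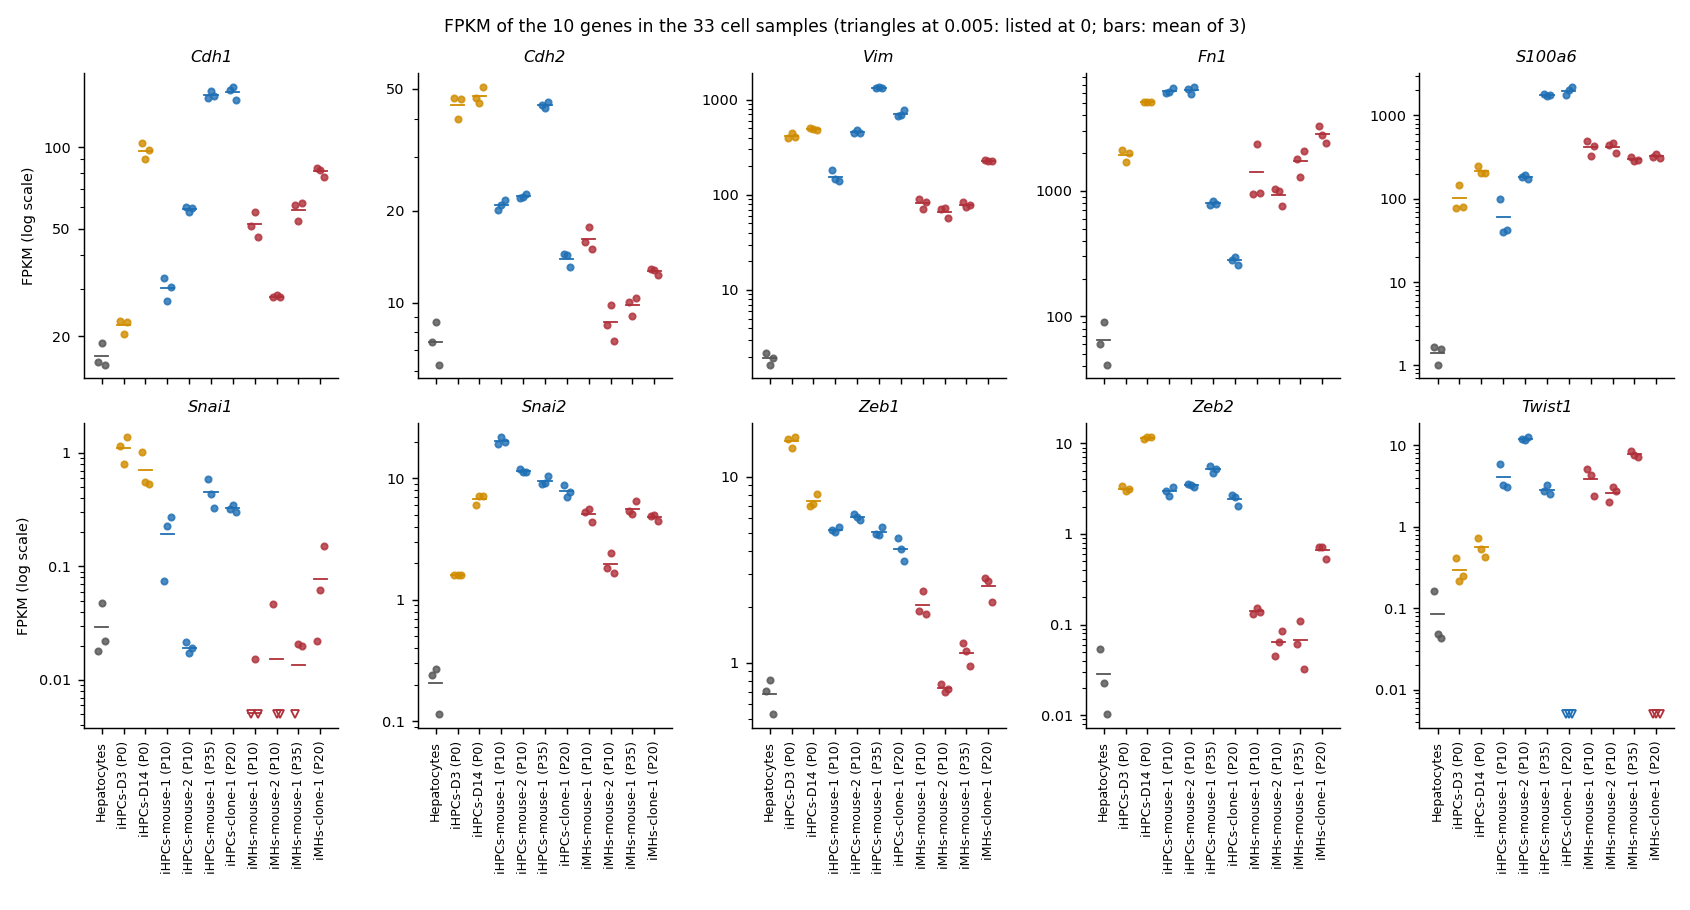
FPKM on a log axis for each of the 10 genes in the 33 cell samples, 1 point per sample, with a bar at the mean of 3 samples and open triangles at 0.005 for samples listed at 0. Vim, Fn1, S100a6, Snai2 and Cdh1 lie above all hepatocyte samples in 10 of 10 groups, and Twist1 is at 0 in the 6 clone-1 libraries. The share of all genes lying above the hepatocytes in this way was not computed.

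In the mean of the passaged IL6-iHPC lines Vim, S100a6 and Fn1 stayed far above hepatocytes, and Cdh1 was higher as well. With the 4 lines weighted equally, 9 of the 10 genes were called higher than in hepatocytes and 0 lower, against 59.4% of all genes called and 48.1% called higher. Snai1 was the exception, with a difference of 0.26 ± 0.07 (limma, adjusted p = 0.000635). Of the 9, Snai2, Zeb1, Zeb2 and Twist1 were under 1 FPKM in all hepatocyte samples and passed the filter through cultured samples alone. The differences were 7.50 for S100a6, 7.45 for Vim, 4.79 for Fn1, 3.38 for Snai2, 2.21 for Cdh1, 2.09 for Zeb2, 1.87 for Twist1, 1.85 for Zeb1 and 1.53 for Cdh2. Their median over the 10 genes was 2.15, where the median of all genes tested was 0.93. Without the clone-1 line the count was again 9, against 58.5% of all genes called. With quantile scaling it was 7, since Cdh2 at 0.60 and Zeb1 at 0.59 fell short of 2-fold, and the split of all calls became 2797 higher and 2335 lower instead of 5931 and 1392. In single lines Cdh1 of mouse-1 P10 (0.80) and Cdh2 of clone-1 (0.83, and -0.34 with quantile scaling) did not reach 2-fold. Twist1 was not called in clone-1 either, where it had 0 reads in all 3 libraries, below every hepatocyte sample.

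All 3 samples lay above all 3 hepatocyte samples in 10 of 10 other cell groups for Cdh1, Vim, Fn1, S100a6 and Snai2. This held in 9 groups for Cdh2 and Zeb1 and in 8 for Zeb2, the rest overlapping. Snai1 was above in 5 groups, below in 1 and overlapping in 4, and Twist1 was above in 8 and below in 2. The share of all genes lying wholly above the hepatocytes was not computed, so these counts cannot be read as particular to the 10 genes. By another measure, calls in either direction, 66.0% of all genes tested were called on D3 and 62.9% on D14. In IL6-iHPCs 52.6% were called in mouse-1 P10, 55.9% in mouse-2 P10, 66.0% at P35 and 61.9% in the clone, and in IL6-iMHs 32.6%, 25.2%, 35.2% and 45.3% in that order.

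The lines differed widely in the same genes, and the order of the lines changed from gene to gene. Vim measured 182, 146 and 139 FPKM in mouse-1 P10, 450, 476 and 451 in mouse-2 P10, 676, 688 and 770 in clone-1 and 1316, 1355 and 1341 in mouse-1 P35. The 4 lines did not overlap, and mouse-1 held both the lowest level, at P10, and the highest, at P35. S100a6 measured 98.3, 39.4 and 42.0 FPKM in mouse-1 P10, 182, 194 and 175 in mouse-2 P10, 1797, 1723 and 1770 in mouse-1 P35 and 1742, 2042 and 2190 in clone-1. The later passages and the clone were above both P10 lines, and the P35 and clone-1 samples overlapped.

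Fn1 ran the other way. It measured 5961, 6120 and 6601 FPKM in mouse-1 P10, 6460, 5932 and 6682 in mouse-2 P10, 772, 836 and 789 in mouse-1 P35 and 281, 299 and 256 in clone-1. The P10 lines overlapped, and both exceeded all samples of the other 2. At P10 Fn1 took 4.97% and 5.07% of all reads on genes in mouse-1 and mouse-2, and in clone-1 0.222%.

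Cdh1 measured 32.7, 27.1 and 30.4 FPKM in mouse-1 P10, 60.3, 57.8 and 59.8 in mouse-2 P10, 152, 161 and 154 in mouse-1 P35 and 163, 167 and 149 in clone-1. It was highest in P35 and clone-1, which overlapped. Cdh2 was 20.1 to 21.7 FPKM in mouse-1 P10, 21.9 to 22.7 in mouse-2 P10, 43.3 to 45.2 in mouse-1 P35 and 13.1 to 14.4 in clone-1, the last nearest to hepatocytes.

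Among the factors, Snai2 measured 19.2, 22.1 and 20.1 FPKM in mouse-1 P10, 12, 11.4 and 11.3 in mouse-2 P10, 8.94, 9.20 and 10.4 in mouse-1 P35 and 8.92, 7.09 and 7.71 in clone-1, all above the D14 mean of 6.79 FPKM. Zeb1 was 3.51 to 6.33 FPKM and Zeb2 2.02 to 5.61 FPKM over the 12 samples, both under the D14 values. Snai1 was 0.0171 to 0.585 FPKM.

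Twist1 separated the clone from the other lines. It measured 5.91, 3.27 and 3.09 FPKM in mouse-1 P10, 11.8, 11.7 and 12.7 in mouse-2 P10 and 2.76, 3.23 and 2.51 in mouse-1 P35, and it had 0 reads in each of the 3 clone-1 libraries. A floor of 3 reads over the clone-1 group corresponds to 0.00922 FPKM, so that the mean of mouse-2 P10 was at least 1311-fold higher and that of mouse-1 P10 at least 444-fold higher, by counting error alone.

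Between passage 10 and passage 35 of mouse-1, 4 of the 10 genes were called higher and 2 lower, against 33.7% of all genes called, 24.8% higher and 8.94% lower. The differences were 4.99 ± 0.23 for S100a6, 3.11 ± 0.09 for Vim, 2.34 ± 0.08 for Cdh1 and 1.05 ± 0.09 for Cdh2, and -2.96 ± 0.24 for Fn1 and -1.03 ± 0.10 for Snai2. With quantile scaling Cdh2 stood at 0.63, its call was lost, and the split of all calls became 1765 higher and 1671 lower instead of 3058 and 1102. The Snai2 call rested on single libraries, with -0.98 without mouse-1 P10 replicate 2 and -0.99 without mouse-1 P35 replicate 1. Zeb1 differed by -0.03 ± 0.09 (limma, adjusted p = 0.751). Between clone-1 and the 2 P10 lines, Cdh1 (1.89), Vim (1.41) and S100a6 (4.29) were called higher, and Fn1 (-4.49) and Twist1 lower, 5 of 10 against 26.6% of all genes, 19.7% higher and 6.88% lower. With quantile scaling Vim stood at 0.75 there, short of 2-fold, and Cdh2 (-1.06) and Snai2 (-1.27) were called lower, with 1519 higher and 1395 lower calls among all genes instead of 2428 and 848. One culture stands for each line and passage, so passage, line and culture cannot be told apart.

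On maturation Vim and 3 of the 5 factors fell in the mean over lines, while Fn1 and S100a6 rose in some lines and fell in others. Over the 4 lines, 4 of the 10 genes were called lower in IL6-iMHs than in IL6-iHPCs and 0 higher, against 28.1% of all genes called, 21.4% lower and 6.68% higher. These were Vim (-2.35 ± 0.05), Zeb2 (-1.86 ± 0.03), Snai2 (-1.29 ± 0.05) and Zeb1 (-1.27 ± 0.05), with limma adjusted p of 2.39e-27, 3.06e-28, 9.7e-21 and 2.49e-21. Zeb2 was under 1 FPKM in every hepatocyte and IL6-iMH sample. It passed the filter through IL6-iHPC samples alone, the groups in which it was high. The median over the 10 genes was -0.81, and over all genes tested -0.40. Without the clone-1 line 6 were called lower, against 33.2% of all genes, as Cdh2 at -1.23 and Fn1 at -1.33 joined them. With quantile scaling 3 were called, Snai2 at -0.79 and Zeb1 at -0.73 being lost and S100a6 at -1.05 gained, and the split of all calls became 1185 higher and 1096 lower instead of 823 and 2636.

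Against hepatocytes, 6 of the 10 were still higher in IL6-iMHs, against 32.6% of all genes called and 24.8% called higher. The differences were 7.22 ± 0.18 for S100a6, 5.10 ± 0.07 for Vim, 4.62 ± 0.19 for Fn1, 2.09 ± 0.08 for Snai2, 1.69 ± 0.12 for Twist1 and 1.55 ± 0.06 for Cdh1. Of the 6, Snai2 and Twist1 had passed the filter through cultured samples alone. Zeb1 (0.58), Cdh2 (0.57), Zeb2 (0.24) and Snai1 (0.00) did not pass the 2-fold limit. With quantile scaling Zeb1 took the opposite sign (-0.14), and the split of all calls became 1576 higher and 1340 lower instead of 3060 and 960. Without the clone-1 line the count was 6 as well, against 29.2% of all genes.

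Zeb2 was under 1 FPKM in all IL6-iMH samples. It measured 0.132, 0.152 and 0.138 FPKM in mouse-1 P10 IL6-iMHs, 0.0453, 0.0638 and 0.0847 in mouse-2 P10, 0.0606, 0.110 and 0.0325 in mouse-1 P35 and 0.726, 0.722 and 0.531 in clone-1. The mouse-2 and P35 samples overlapped the hepatocytes, and clone-1 stood above the other lines. How far Zeb2 and Zeb1 returned depends on the scale, since against hepatocytes they differed by 1.05 and 1.00 with a pseudocount of 0.1 and by 2.45 and 1.06 in voom, past the call limits in both. Zeb1 in IL6-iMHs was 0.696 to 2.87 FPKM, and mouse-2 overlapped the hepatocytes. Snai1 had 0 to 16 reads in these 12 libraries.

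The direction of change differed between lines for Fn1 and S100a6, and each was the reverse of the other. Fn1 measured 948, 2339 and 961 FPKM in mouse-1 P10 IL6-iMHs, 1039, 990 and 750 in mouse-2 P10, 1782, 1276 and 2073 in mouse-1 P35 and 3293, 2766 and 2386 in clone-1. Set beside the IL6-iHPC values above, every sample of the P10 lines was lower after maturation and every sample of P35 and clone-1 higher. The limma differences were -2.27 in mouse-1 P10, -2.79 in mouse-2 P10, 1.07 at P35 of mouse-1 and 3.32 for clone-1, each with an SE of 0.24. Without P35 IL6-iMH replicate 3 the P35 difference was 0.92, short of 2-fold.

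S100a6 measured 492, 323 and 426 FPKM in mouse-1 P10 IL6-iMHs, 438, 471 and 355 in mouse-2 P10, 321, 283 and 294 in mouse-1 P35 and 314, 347 and 305 in clone-1. It rose in all samples of the P10 lines and fell in all samples of P35 and clone-1. The differences were 2.87, 1.19, -2.56 and -2.62 in that order, each ± 0.23. With quantile scaling the mouse-2 difference was 0.30 (limma, adjusted p = 0.251) and its call was lost. IL6-iHPC means of S100a6 spanned 59.9 to 1991 FPKM, and IL6-iMH means 299 to 422 FPKM.

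The other genes mostly fell, by unequal amounts. Vim measured 90.3, 70.1 and 84.0 FPKM in mouse-1 P10 IL6-iMHs, 70.3, 72.4 and 57.7 in mouse-2 P10, 83.8, 75.2 and 77.8 in mouse-1 P35 and 230, 225 and 226 in clone-1. Clone-1 was the high line after maturation, and the other 3 overlapped. The Vim differences were -0.92, -2.77, -4.07 and -1.64, and the first did not reach 2-fold. Zeb2 was called lower in all 4 lines (-1.79, -2.06, -2.54 and -1.04), the clone-1 call being lost without clone-1 IL6-iMH replicate 3 at -0.98. Snai2 was 5.34, 5.62 and 4.37 FPKM in mouse-1 P10 IL6-iMHs, 1.83, 2.45 and 1.67 in mouse-2 P10, 5.38, 5.08 and 6.50 in mouse-1 P35 and 4.92, 4.96 and 4.50 in clone-1, and was called lower in the P10 lines alone (-1.82 and -2.08). Of all genes, 25.0% were called in mouse-1 P10, 39.9% in mouse-2 P10, 45.3% at P35 of mouse-1 and 23.6% for clone-1.

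Cdh1 measured 51.0, 57.6 and 46.7 FPKM in mouse-1 P10 IL6-iMHs, 27.9, 28.3 and 27.9 in mouse-2 P10, 60.8, 53.2 and 62.1 in mouse-1 P35 and 84.0, 82.6 and 77.2 in clone-1. It was called lower in mouse-2 P10 (-1.05) and mouse-1 P35 (-1.40), and the mouse-1 P10 samples were higher than before maturation (0.76, under 2-fold). Cdh2 was 7.52 to 17.7 FPKM in IL6-iMHs and was called lower in the same 2 lines (-1.28 and -2.06).

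Twist1 measured 5.07, 4.26 and 2.37 FPKM in mouse-1 P10 IL6-iMHs, 2.02, 3.03 and 2.72 in mouse-2 P10 and 8.38, 7.63 and 7.23 in mouse-1 P35, with 0 reads in the 3 clone-1 libraries. It was called lower in mouse-2 P10 (-1.87) and higher in mouse-1 P35 (1.19), and in mouse-1 P10 the samples before and after overlapped. The mean of P35 IL6-iMHs was at least 768-fold above the clone-1 IL6-iMH floor of 0.0101 FPKM.

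**Figure D3:**
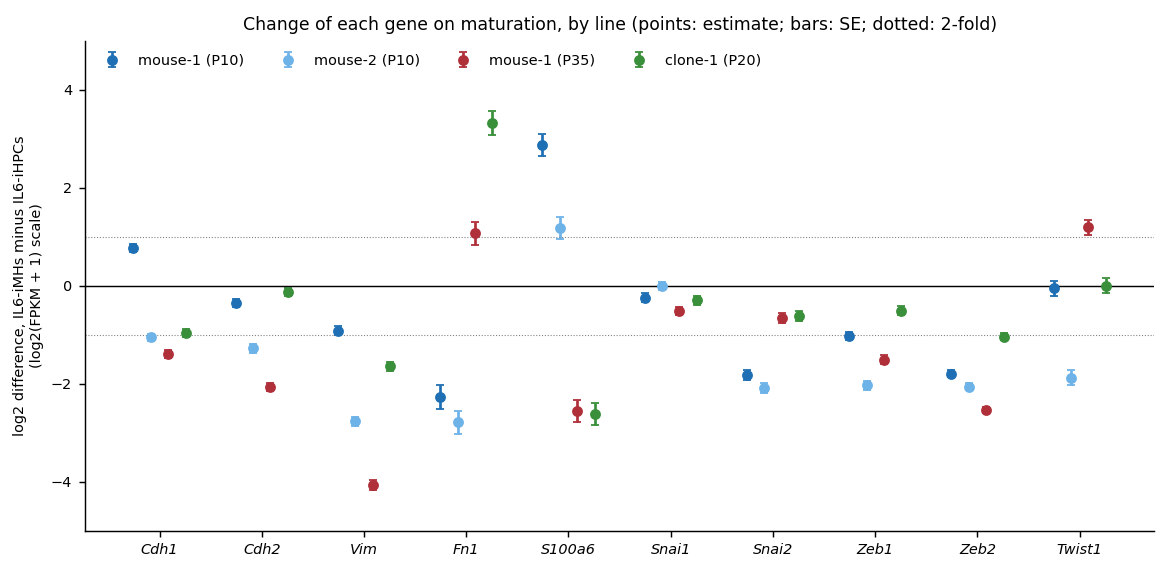
Difference between IL6-iMHs and IL6-iHPCs of each line for the 10 genes on the log2(FPKM + 1) scale, with bars for the SE of the limma fit and dotted lines at 2-fold. Fn1 and S100a6 take opposite signs in the P10 lines and in P35 and clone-1, Zeb2 is below 0 in all 4 lines, and Twist1 of clone-1 sits at 0 because all its libraries are at 0 reads.

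The differences between lines were tested themselves. The maturation change of mouse-1 P35 differed from that of mouse-1 P10 in 7 of the 10 genes, against 33.7% of all genes called, among them Fn1 by 3.34 ± 0.34 and S100a6 by -5.43 ± 0.32 (limma, adjusted p = 5.82e-10 and 3.77e-15). That of mouse-2 P10 differed from mouse-1 P10 in 5, against 14.7%, and Fn1 was not one of them (-0.52 ± 0.34, adjusted p = 0.187). That of clone-1 differed from the 2 P10 lines in 4, against 32.8%, with Fn1 at 5.85 ± 0.30 and S100a6 at -4.65 ± 0.28. In all, 8 of the 10 genes differed between lines in at least 1 of the 3 tests, against 54.7% of all genes.

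Other genes of the same themes were counted by lists, with the clone-1 line included throughout. In passaged IL6-iHPCs against hepatocytes, 4 of 4 catenins tested were higher (median difference 2.18), Ctnna1 (alpha-catenin) by 2.57 and Jup (plakoglobin) by 2.25. Of 20 epithelial junction and keratin genes 12 were higher and 2 lower. Krt20 (7.24) and Krt19 (6.85), keratins of simple epithelia, rose, and the tight-junction claudins Cldn3 (-5.02) and Cldn1 (-4.05) fell. Of 11 regulators of the epithelial state 3 were higher and 1 lower, with Klf5 at 4.55, Klf4 at 4.47 and Foxa3, a hepatic forkhead factor, at -2.16. Krt20, Krt19, Klf5 and Klf4 averaged 0.0, 0.0273, 0.0 and 0.0472 FPKM in hepatocytes. They passed the filter through cultured samples alone and could not have been called lower. How many genes of each list did so was not counted.

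Of 16 further mesenchymal structural and matrix genes 10 were higher and 1 lower. Anxa2 (annexin A2) rose by 8.06, Timp1, an inhibitor of matrix proteases that was listed at 0 in all hepatocyte samples, averaged 102 FPKM, and Thy1 fell by 1.37. Of 15 genes of TGF-beta signalling and its targets 12 were higher and 0 lower, with Id1 at 4.66. Of 4 further EMT factors tested 3 were higher, Sox4 by 5.01 and Tcf3 by 2.27. Timp1 and Sox4, the latter with a hepatocyte mean of 0.0296 FPKM, also passed the filter through cultured samples alone. Of 6 other intermediate filament genes 4 were higher, among them the lamins Lmna (2.41) and Lmnb1 (1.88). Of the 12 tested relatives of S100a6, 4 were higher and 2 lower, with S100a11 at 7.82, S100a8 at 1.15, S100a9 at -1.16 and S100a1 at -1.97. Epithelial and mesenchymal lists thus both held more higher than lower genes, as did all genes tested (48.1% higher and 11.3% lower). On maturation, 3 of 4 catenins, 4 of the 16 mesenchymal genes, 3 of the 4 EMT factors and 6 of the 15 TGF-beta genes were lower, against 21.4% of all genes.

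Markers of other liver cells were read in the same samples. Of 14 stellate cell and fibroblast markers 1 passed the filter in the cell samples. Their summed level was 0.896 to 1.35 FPKM in hepatocytes, 1.61 to 2.12 on D3, 25.8 to 27.8 on D14, 3.48 to 19.4 in passaged IL6-iHPCs and 0.0921 to 0.630 in IL6-iMHs, where Vim was 57.7 to 230 FPKM. On D14 most of the sum was Dcn (decorin, mean 24.8 FPKM). Hand2, Pdgfrb, Lum and Col3a1 were at 0 in all samples of 1 or more passaged groups. Endothelial markers summed to 22.5 to 25.5 FPKM in hepatocytes and 0.579 to 9.16 in passaged IL6-iHPCs. Kupffer cell and macrophage markers summed to 18.5 to 21.8 FPKM in hepatocytes and 21.7 to 27.2 on D3, of which Cd68 made 24.2 on average while Clec4f and Marco were at 0. In passaged IL6-iHPCs they summed to 0.965 to 10.1 and in IL6-iMHs to 1.46 to 40.9 FPKM. Nearly all of the IL6-iMH sum was Csf1r and Cd68, with means of 19.9 and 17.5 FPKM in mouse-1 P35. Ptprc, Clec4f, Vsig4 and Cd5l were at 0 in all IL6-iMHs. Of 6 mesothelial markers, Msln (mesothelin) alone reached high levels in passaged cells, and the sum was 69.6 to 365 FPKM in IL6-iHPCs and up to 0.0508 in hepatocytes. Of 9 biliary markers 6 were tested and all 6 were higher in passaged IL6-iHPCs, against 48.1% of all genes called higher. Krt7, Krt19 and Muc1 among them averaged 0.0, 0.0273 and 0.0063 FPKM in hepatocytes. They passed the filter through cultured samples alone, so they could not have been called lower. Epcam, Cftr and Tff2 did not pass the filter and averaged at most 0.553 FPKM in any passaged IL6-iHPC group. The 9 summed to 6.23 to 9.15 FPKM in hepatocytes and 2716 to 11016 in passaged IL6-iHPCs, most of it Spp1. The part of any of these cell types in the levels of the 10 genes was not tested.

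**Figure D4:**
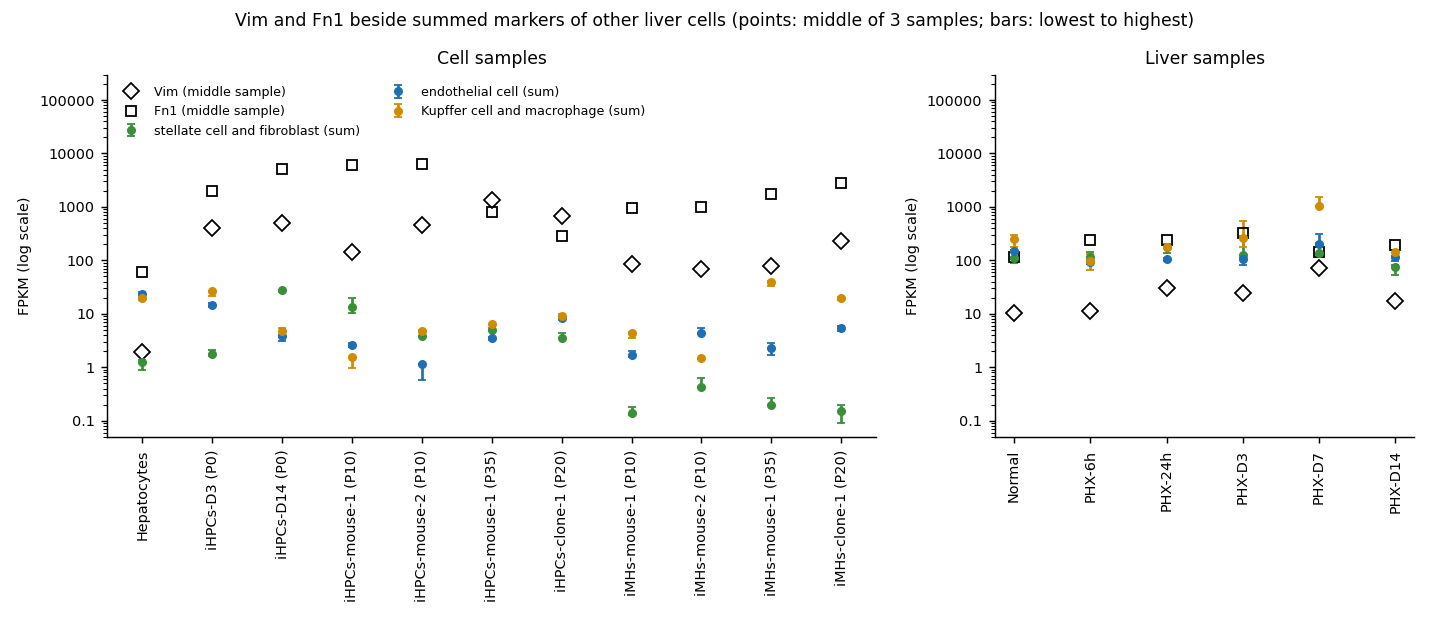
Vim and Fn1 (open symbols, middle of 3 samples) beside the summed FPKM of stellate and fibroblast, endothelial and Kupffer markers (filled points, bars from the lowest to the highest sample), on a log axis, for cells on the left and livers on the right. In the cell samples Vim rises from 1.94 FPKM to at least 70.3 FPKM while the stellate sum is at most 27.8 FPKM, and in the livers the Kupffer sum reaches 1053 to 1526 FPKM 7 days after PHX.

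In the livers the same genes moved less and at other times, and 9 of the 10 could be tested, Twist1 having 0 to 6 reads per sample. In whole tissue, fewer cells of a type and less RNA per cell cannot be told apart. At 6 h after PHX Fn1 rose and Cdh1 fell, 2 of 9 genes against 16.3% of all genes called, 4.78% higher and 11.5% lower. With quantile scaling the same number was called among the 9, and the split over all genes became 758 higher and 674 lower instead of 531 and 1279. Fn1 measured 113, 78.0 and 115 FPKM in normal liver and 236, 272 and 219 at 6 h, without overlap (limma, 1.25 ± 0.24, adjusted p = 0.000458). Cdh1 measured 19.7, 10.7 and 19.6 FPKM in normal liver and 6.47, 8.36 and 3.11 at 6 h, again without overlap, although 1 normal liver stood near the treated ones (limma, -1.37 ± 0.34, adjusted p = 0.00371).

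At 24 h Fn1 stood at 199, 242 and 298 FPKM (1.26 ± 0.24, limma adjusted p = 0.00112). Vim, at 11, 8.88 and 10.5 FPKM in normal liver, measured 15.8, 38.6 and 30.6 at 24 h (1.32 ± 0.29, limma adjusted p = 0.0031). Both genes were above all normal samples, and these 2 of 9 genes stand against 7.90% of all genes called and 3.74% called higher. At 3 days the same pair was called, against 5.82% of all genes called and 3.33% called higher. Fn1 then measured 332, 486 and 234 FPKM (1.73 ± 0.24) and Vim 24.5, 43.5 and 24.1 (1.46 ± 0.29).

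S100a6 measured 0.786, 1.57 and 1.03 FPKM in normal liver and 1.28, 20.2 and 1.48 at 3 days after PHX. Replicate 2 alone was high, and the other 2 samples lay within the range of normal liver (limma, 1.23 ± 0.56, adjusted p = 0.109). In that sample the Kupffer and macrophage markers summed to 554 FPKM against 260 and 181 in the other 2, the stellate markers to 285 against 111 and 128, the biliary markers to 152 against 54.3 and 34.9, and the hepatocyte markers to 39632 against 52145 and 73333. It was also the high sample for Vim, Fn1, Cdh1 and Zeb2 at 3 days. Without it the limma differences at 3 days were 1.19 for Vim (adjusted p = 0.00703), 1.46 for Fn1 (adjusted p = 0.000256) and 0.18 for S100a6.

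At 7 days Vim and S100a6 were called higher, 2 of 9 against 8.84% of all genes called and 7.81% called higher. With quantile scaling that split was 580 higher and 221 lower instead of 868 and 114. Vim measured 99.6, 70.5 and 68.4 FPKM and S100a6 15.8, 11.7 and 11.1, every sample above every normal liver. The limma differences were 2.84 ± 0.29 and 2.70 ± 0.56 (adjusted p = 2.58e-06 and 0.00195). Zeb2 rose from 1.37, 1.55 and 1.36 FPKM to 5.60, 3.13 and 2.74 without overlap, a difference of 0.94 ± 0.19 (limma, adjusted p = 0.00165) that fell just short of 2-fold. Fn1, at 125, 173 and 141 FPKM, lay above the normal samples by less than the test could call (0.52 ± 0.24, limma adjusted p = 0.108).

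In the same 7-day livers 9 of 10 Kupffer and macrophage markers were called higher, against 7.81% of all genes. Their median difference was 1.97, and they summed to 1053 to 1526 FPKM against 176 to 297 in normal liver. Marco, a scavenger receptor of macrophages, differed by 4.69. Endothelial markers summed to 200 to 306 FPKM against 148 to 153, and 4 of 10 were called higher, against the same 7.81%. Stellate and fibroblast markers summed to 126 to 210 FPKM against 88.1 to 116. Macrophages, endothelial cells and stellate cells are all known to carry vimentin, and the part of their markers' rise in the levels of Vim, S100a6 and Zeb2 was not tested.

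At 14 days 0 of the 9 genes were called by limma, against 2.98% of all genes. At an adjusted p under 0.05 without the fold limit there were 2, Fn1 at 0.91 (adjusted p = 0.0155) and Zeb2 at -0.59 (adjusted p = 0.0461). Vim measured 17.2, 17.2 and 15.8 FPKM and S100a6 4.41, 4.70 and 2.97, still above every normal sample although neither passed the test.

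Cdh2 in the livers was 5.88 to 6.40 FPKM at 6 h and 8.79 to 10.2 in normal liver, a difference of -0.57 ± 0.14 (limma, adjusted p = 0.00274) under 2-fold, and the log2 ratio of Cdh1 to Cdh2 averaged 0.73 ± 0.57 (SD, n = 3) in normal liver, -0.16 ± 0.74 at 6 h and -0.16 ± 0.20 at 7 days. The ratio was 1.06 to 2.23 in normal liver and 0.496 to 1.31 at 6 h, which overlap, and 0.767 to 0.994 at 7 days, below every normal sample. These differences in ratio were not tested. Snai2 fell from 1.58, 2.26 and 1.33 FPKM to 0.420, 0.688 and 0.332 at 6 h without overlap (-0.87 ± 0.19, limma adjusted p = 0.00141, under 2-fold) and stood at 3.05, 3.41 and 2.48 at 7 days. Snai1 was 0.221 to 2.27 FPKM and Zeb1 1.66 to 3.93 FPKM over all 18 livers, and neither was called at any time.

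**Figure D5:**
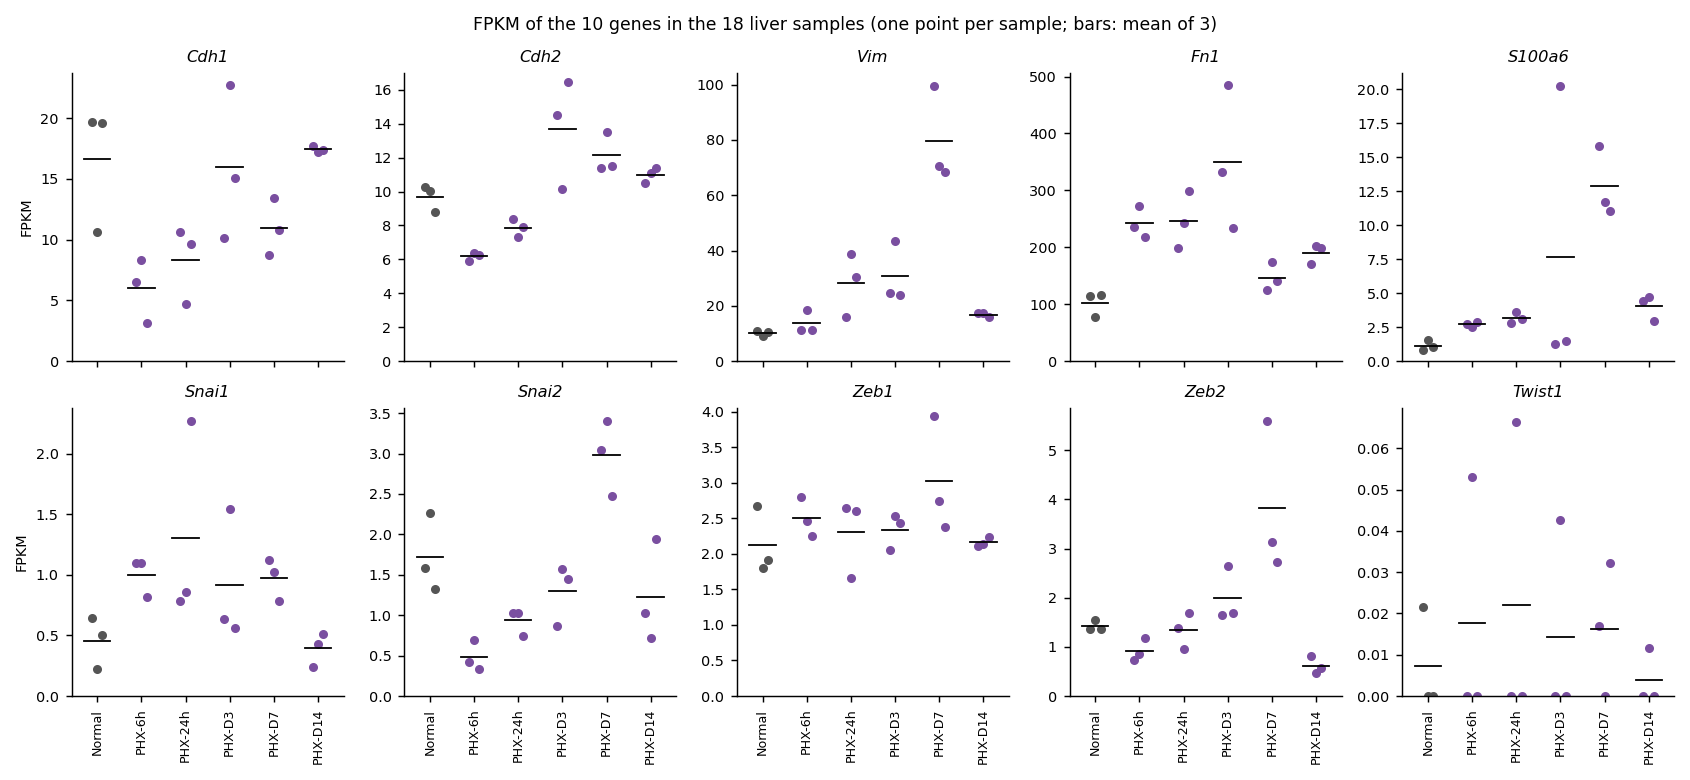
FPKM of the 10 genes in the 18 livers, 1 point per sample, on linear axes that start at 0, with bars at the mean of 3. Fn1 is raised at 6 h to 3 days, Vim at 24 h to 7 days and S100a6 at 7 days. The single S100a6 point of 20.2 FPKM stands apart at 3 days, and Twist1 stays under 0.07 FPKM.

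The livers and the D3 culture did not raise the same genes to the same extent. D3 cells had a mean of 417 FPKM of Vim and 1938 FPKM of Fn1, and the highest means in the livers were 79.5 FPKM at 7 days and 350 FPKM at 3 days. The 2 tables were normalized separately, so these levels are set side by side without a test.

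Across the 11 means of the cell groups, the 3 genes whose log2 levels followed each of the 10 most closely were listed by Pearson's r. Vim went with Tpm4, a tropomyosin of the actin cytoskeleton (r = 0.99), Ap2a1 and Stk24. S100a6 went with Bag2 (0.99), Pafah1b3 and the galectin Lgals3, Fn1 with Glis3 (0.98), Garem and Ncdn, Cdh1 with N6amt1 (0.95), Nxpe3 and Rnf43, and Cdh2 with Nol9 (0.98), Ccnj and Noc3l. Zeb1 went with Zbtb6, Rbm27 and Atad2b (r from 0.99 upwards), Zeb2 with Lrrc8b (0.97), Gtf3c6 and Synrg, Snai1 with Slc4a11 (0.99), Slc26a10 and Dcakd, Snai2 with Gm39972 (0.96), Prkca and Kdelr2, and Twist1 with Pax6 (0.91), Scn8a and Pnpla3. None of the 10 genes was among the nearest 3 of another. Between the 10 genes, r was 0.89 for Cdh2 with Zeb1 and with Zeb2, 0.84 for Zeb1 with Zeb2, 0.80 for Cdh1 with S100a6, 0.79 for Vim with S100a6 and -0.44 for Twist1 with Snai1. Cdh1, the target the factors are known to repress, had r = 0.58 with Snai2, 0.46 with Zeb2, 0.21 with Zeb1, 0.12 with Snai1 and -0.01 with Twist1. All these values share the same 33 libraries, they rest on 11 points, and 16 of the 30 neighbours were the same without the clone-1 line. Far fewer were kept with Spearman's rho in place of Pearson's r, a count given in the last section.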

How the data were processed

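RNA-seq of 33 cell samples and 18 livers was analysed from the tables the authors deposited. The deposited values are FPKM per gene, with samples in columns, made by the authors from paired poly(A) reads. Per the submitters' processing notes the tools were TopHat 1.4.1 and Cufflinks 1.3.0 on mm10, whose roles were not given in the sources used here. Neither table names its unit in the header, and whole reads could be recovered from the FPKM steps for 18826 of 18828 genes with values (cells) and 17327 of 17329 (livers), within 0.03 of a whole read.

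A gene was kept where 3 or more samples reached 1 FPKM (12328 and 11114 genes), values were taken as log2(FPKM + 1), and 1 limma trend fit was made per table over all its groups (limma 3.58.1, R 4.3.3), with p-values adjusted by Benjamini-Hochberg over all genes. For low genes, differences on this scale are smaller than the true change. A call needed an adjusted p under 0.05 and 2-fold. Other steps used Python 3.11.15 with numpy 2.4.6, pandas 2.3.3 and matplotlib 3.10.9. Lists covered catenins, epithelial genes and their regulators, other mesenchymal genes and EMT factors, intermediate filaments, S100 genes, TGF-beta genes and markers of 6 liver cell types. The 10 genes, the lists and the tests were chosen with earlier results of these data known. All 10 genes were named throughout, with the 2 largest rises and falls past the threshold per list and the 3 nearest genes by r, except for 1 gene that is not reported here. In a test on simulated data, 100% of 200 planted changes of 4-fold were recovered for D3 and 98% for 6 h after PHX.

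Median depth was 60791124 reads on genes in cells and 57447561 in livers. Gene coordinates are those of GENCODE M21 on GRCm38, the build of mm10. Of the day 7 table, 480 complete records without any of the 10 genes were held, and it was not used. No sample column was left unmapped. Alternatives were a pseudocount of 0.1, no filter or one of 5 FPKM, quantile scaling, no fold limit, voom on recovered reads, the replicate number as a block, leaving out each sample and, chosen after seeing the data, leaving out the clone-1 line.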

Additional observations from a re-analysis of the deposited data

Results flagged for a closer look

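The change on maturation differed between lines for 8 of the 10 genes (54.7% of all genes tested did so), each by a limma test of the difference itself with an adjusted p under 0.05 and over 2-fold. Mouse-1 at passage 35 was set against mouse-1 at passage 10. The difference in log2 change was -2.16 for Cdh1, -1.71 for Cdh2, -3.15 for Vim, 3.34 for Fn1, -5.43 for S100a6, 1.15 for Snai2 and 1.25 for Twist1. For Fn1 and S100a6 the 2 passages moved in opposite directions in every sample.

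Mouse-2 at passage 10 was set against mouse-1 at passage 10. The difference was -1.82 for Cdh1, -1.85 for Vim, -1.69 for S100a6, -1.01 for Zeb1 and -1.82 for Twist1. S100a6 rose in both lines and by less in mouse-2. The Zeb1 value lay at the 2-fold limit and fell to -0.92 without mouse-1 P10 IL6-iMH replicate 2.

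Clone-1 was set against the mean of the 2 P10 lines. The difference was 5.85 for Fn1, -4.65 for S100a6, 1.33 for Snai2 and 1.02 for Zeb1, which fell to 0.94 without clone-1 IL6-iHPC replicate 3. The libraries labelled clone-1 IL6-iHPCs held 6575 to 9095 reads of 4 Y-linked genes and those labelled clone-1 IL6-iMHs 0, so the clone-1 values compare libraries that differ in more than maturation.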

How the results depend on the processing

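The counts of genes called were 2 to 9 in the main comparisons and 0 in livers at 14 days. Without a fold limit the counts became 9 on D3 (8 with it), 10 on D14 (8), 10 in passaged IL6-iHPCs (9), 9 in IL6-iMHs (6), 9 from P10 to P35 (6), 10 between lines (8), 3 in livers at 3 days (2), 8 from D3 to D14 (5), 9 from IL6-iHPCs to IL6-iMHs (4), 10 for clone-1 against the P10 lines (5), 4 at 6 h (2), 4 at 24 h (2), 4 at 7 days (2) and 2 at 14 days (0). A pseudocount of 0.1 gave 4 at 6 h and 1 at 14 days, and voom gave 1 at 14 days. In single values, Snai2 on D3 turned to -0.10 under quantile scaling (limma, adjusted p = 0.380), and 25 of 275 values lost and 5 gained a call there. Pseudocount 0.1 added 27 calls, mostly of low factors such as Snai1, voom 34 and the missing fold limit 64. The cause of these shifts was not tested, except that each rests on the setting changed.

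Leaving out 1 sample at a time gave 7 to 8 genes on D3 (7 without D3 replicate 3, where Snai1 stood at 0.93), 8 to 8 on D14, 5 to 6 from D3 to D14, 9 to 9 in passaged IL6-iHPCs, 5 to 6 from P10 to P35, 5 to 5 for clone-1, 4 to 4 on maturation, 6 to 6 in IL6-iMHs and 8 to 8 between lines. In livers it gave 2 to 2 at 6 h, 2 to 3 at 24 h, 2 to 3 at 3 days, 2 to 3 at 7 days and 0 to 1 at 14 days. Cdh1 was called at 24 h without normal liver replicate 2 (-1.21) or PHX-24h replicate 1 (-1.13), and S100a6 at 3 days without PHX-D3 replicate 1 (1.78) or 3 (1.72). Zeb2 was called at 7 days without PHX-D7 replicate 2 (1.03) or 3 (1.11), and at 14 days S100a6 without PHX-D3 replicate 2 (1.24) and Fn1 without normal liver replicate 3 (1.00). The mean of Cdh1 was above that of Cdh2 in 14 of 17 groups, and in 13 to 15 without single samples. Of the 30 nearest genes 26 to 30 were kept without single samples, 5 with Spearman's rho and 16 without clone-1.

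With the replicate number as a block, every count equalled the one without it (8 on D3, 9 in passaged cells, 4 on maturation), and the calls of all 275 values were the same. Same-numbered samples deviated together, with r over 0.1, in 33 of 165 pairs of groups in cells and 7 of 45 in livers. The median r was -0.0156 for same-numbered and 0.0162 for other-numbered samples in cells, and -0.0551 and 0.0165 in livers. Whether samples of the same number were handled together was not tested further. Alternatives for the day 7 cultures were not run. Snai1 and Twist1 rest on few reads in many libraries, and with 3 technical libraries per culture nothing is known of the spread between mice.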
